A study of Mus musculus with 30 samples.

Results

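Naive and memory CD8+ T cells in mixed culture departed unequally from the same cells cultured alone at 96 h. The account below covers the difference of those contrasts: TN mix minus TN alone, less TMem mix minus TMem alone. Each contrast is called an effect of mixing for short, which names the groups compared and not a cause. The arrays were taken by their group labels, 12 of the 30 in the series, and the counts run over the 19103 genes on autosomes among 19938 genes measured. All cells were Pmel-1 CD8+ T cells, which carry a transgenic T cell receptor for a melanocyte protein, from spleens of adult C57BL/6 mice labelled as female and 6-12 weeks old. TN mix cells were Ly5.1 Pmel-1 Tg cells that started as naive (TN) cells and were stimulated together with TMem cells. TN alone cells had the same genotype and were stimulated with no TMem cells present. TMem mix cells were Ly5.2 Pmel-1 Tg cells, differentiated to a memory state (TMem) in vitro, and were stimulated together with TN cells. TMem alone cells were stimulated without TN cells. All 4 groups were stimulated for 96 h with antibodies to CD3 and CD28 plus IL-2 and then sorted by flow cytometry, and each had 3 arrays, described by the submitters as biological repeats. The memory cells are therefore a culture-made model, and the congenic Ly5 forms are the only stated mark by which the 2 cell types could be told apart in a mix.

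A naive T cell that meets antigen leaves a resting program run by factors such as KLF2 and LEF1, which keep the receptors for lymph node homing and survival cytokines, and enters an effector program of cytokine, cytotoxic and metabolic genes. A memory cell has made that switch before and makes it again faster. Activated T cells lean on aerobic glycolysis, on sterol and fatty acid synthesis under SREBP factors and on amino acid supply under ATF4, and they hold back with inhibitory receptors such as PD-1, CTLA-4 and LAG-3.

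Sex-linked genes went against the labels and are given before any result. Eif2s3y, a translation factor gene on the Y chromosome, had log2 values of 7.34, 7.70 and 7.89 in TN mix and 4.17, 4.20 and 4.13 in TN alone. It had 9.51, 8.87 and 9.30 in TMem mix and 9.25, 9.33 and 9.22 in TMem alone. Xist, the RNA of the inactive X chromosome, had 11.74, 11.07 and 11.78 in TN mix and 12.11, 12.11 and 12.10 in TN alone, but 4.99, 5.47 and 5.33 in TMem mix and 5.22, 5.49 and 5.68 in TMem alone. So all TMem arrays carried Y signal with Xist near background, TN alone carried Xist without Y signal, and TN mix carried both. Set on the line from TN alone to TMem mix in linear intensity, Eif2s3y, Kdm5d and Uty together put the 3 TN mix arrays at 27.8%, 32.6% and 36.9%, a mean of 32.44%. The part of the TN alone Xist level missing from the same arrays was 22.8%, 51.6% and 20.4%, which differs from the Y-linked share by over 1.5 times on TN mix repeats 2 and 3 and ranks the arrays otherwise. The TN alone arrays at 18 h, with no TMem cells in the culture, also carried Y signal, with Eif2s3y at 8.09 to 8.25. Which mice gave the TN cells of each group is not in the labels, so mixing and the sex of the donors cannot be told apart in the TN comparison.

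Autosomal genes that TMem cells expressed far above TN cells were set on the same line. Of these, 31 genes were at least 3 lower (log2) in TN alone than in TMem alone; that choice used the TN alone arrays, so their positions are a description. On the same linear scale the TN mix arrays stood at -5.16% to 61.7% of the step to TMem mix for these genes, with a median of 8.78%, and 16 of the 31 were under 10%. Perforin (Prf1) was at 1.09%, granzyme A (Gzma) at 0.979%, the NK-type receptor Klrc1 at 0.160% and the inhibitory receptor Havcr2 at -3.04%. Ak4, Bnip3, Asns, Zdhhc2, Mt2 and Scd1 were the 6 genes above the Y-linked mean of 32.44%. Many results below are also given with the TMem mix signal subtracted from each TN mix array at that array's Y-linked share. Some further calls that this changed are listed in the closing section on processing. In that subtraction 5754 of 57309 autosomal values reached a floor. By its construction the subtraction lowers genes that are high in TMem mix, and lowers them to the floor where the TN mix arrays stood below the share removed, so its values show what such a share would do and are no test of it. A subtraction at the Xist-based shares, chosen after seeing the data, is named below where it ends a call for the difference that the Y-linked one kept or where only the Y-linked one turned the sign of a call.

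**Figure D1:**
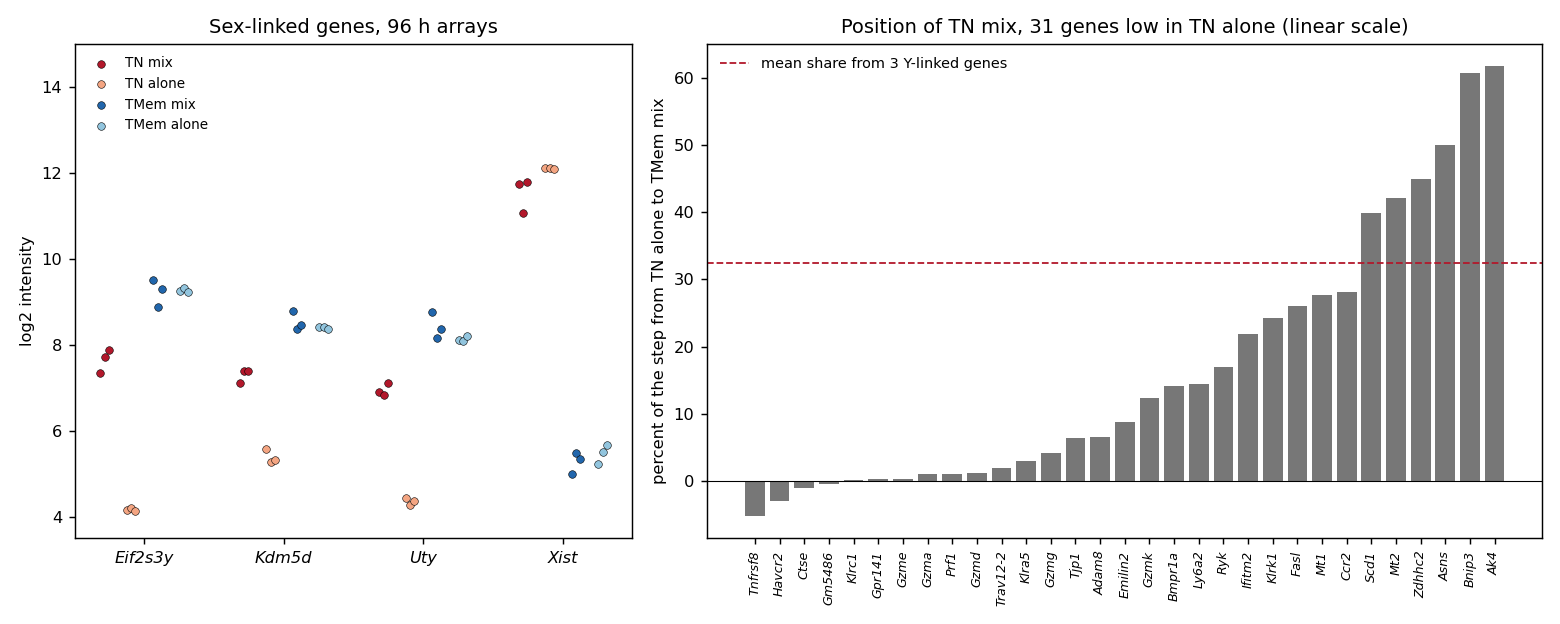
Left, log2 intensity of 3 Y-linked genes and Xist on the 12 arrays at 96 h, where TN mix lies between TN alone and TMem for the Y-linked genes. Right, the position of the TN mix mean between TN alone (0) and TMem mix (100) in linear intensity, in ascending order. It is given for the 31 autosomal genes at least 3 lower (log2) in TN alone than in TMem alone. The dashed line is the mean of the Y-linked genes, 32.44%.

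More genes were called between mix and alone in TN than in TMem cells. With limma and Benjamini-Hochberg adjustment over all genes, and calls at an adjusted p below 0.05, 1341 genes (7.02%) rose in TN mix against TN alone and 699 (3.66%) fell. In TMem mix against TMem alone 189 genes (0.989%) rose and 28 (0.147%) fell, and 1369 genes had an unadjusted p below 0.05 in TMem. Called changes of at least 1 (log2) numbered 178 in TN and 7 in TMem. The difference of the effects was called for 679 genes (3.55%), positive for 366 (1.92%) and negative for 313 (1.64%), where positive means that the mix lay higher against alone, or less far below it, in TN than in TMem. Rises in TN numbered 892 without TN mix repeat 2, and falls in TN 434 without TN alone repeat 2; leaving out any 1 TMem array gave 94 to 155 rises and 6 to 13 falls in TMem. Of the positive differences, 337 lay in genes that rose in TN and were not called in TMem. Of the negative ones, 222 fell in TN without a TMem call, 44 rose in TMem without a TN call, and 21 did both.

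Shared effects were mostly rises, and opposite effects were nearly all falls in TN with rises in TMem. Both cell types were called in the same direction for 92 genes (0.482%), 84 up and 8 down, and 8 of the 92 also differed in size. Both were called in opposite directions for 22 genes (0.115%), of which 21 fell in TN and rose in TMem. The reverse pattern held 1 gene, Ppp2r2c, a regulatory subunit of protein phosphatase 2A. Across all 19103 genes the 2 effects, which share no array, had a Pearson r of 0.18 and a Spearman rho of 0.144; genes are not independent replicates. The balance of rises and falls depended on scaling and on 1 array: 65.7% of the TN calls were rises as deposited, 49.2% with arrays centred on their medians and 51.2% after quantile normalization, and positive calls were 53.9%, 41.4% and 47.2% of the difference. Without TN mix repeat 2 the difference was positive for 246 genes and negative for 302 (44.9% positive), and after subtraction 42.1% of the calls were positive. Leaving out each of the 12 arrays in turn gave 102 to 229 TMem calls, 48 to 90 shared calls and 12 to 20 opposite calls, with counts of 120, 133, 102 and 123 in TMem, 60, 57, 48 and 57 shared and 12, 13, 14 and 13 opposite without TMem mix repeat 1, TMem mix repeat 2, TMem alone repeat 1 and TMem alone repeat 3.

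**Figure D2:**
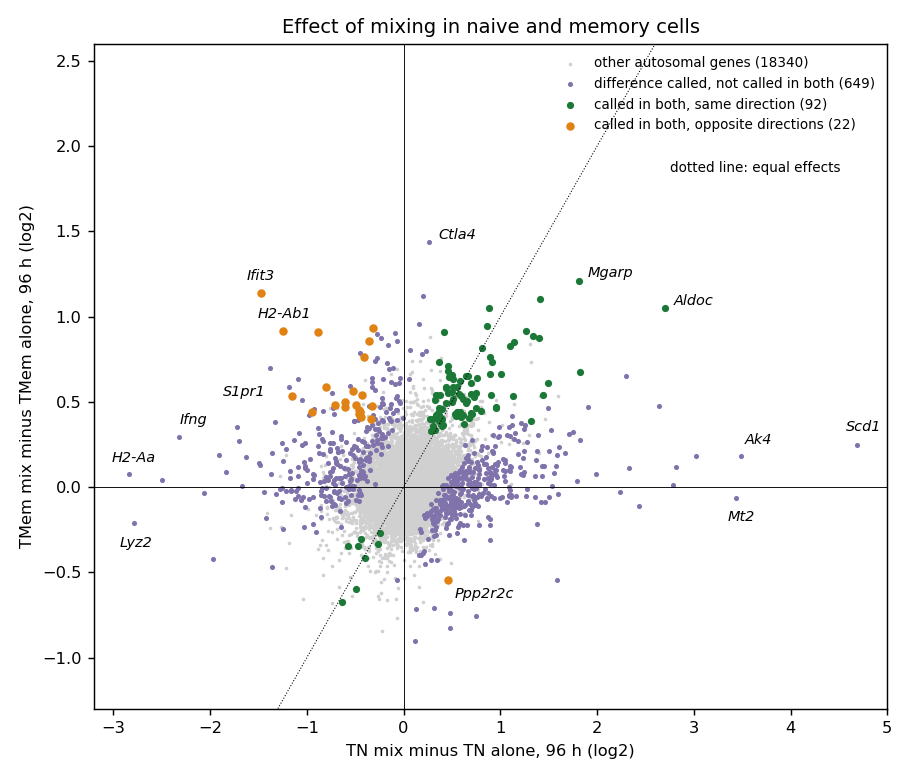
Each point is 1 autosomal gene, with the effect of mixing in TN on the horizontal axis and in TMem on the vertical axis (log2 differences of means of 3 arrays). Of the genes called in both, 92 share a direction and 22 are opposite, 21 of them at upper left; the axes have different scales.

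Of all the gene lists examined, sterol synthesis had the largest share of members called for the difference. All 18 sterol synthesis genes measured on autosomes rose in TN mix, and none was called in TMem, where 1 had an unadjusted p below 0.05. In TMem 0.989% of all genes rose and 0.147% fell, so that absence is near the share over all genes. Of the 18, 17 differed, all positive, with a median difference of 0.79 against 0.06 over all genes. Scd1, the stearoyl-CoA desaturase that makes monounsaturated fatty acids, read 10.22, 10.27 and 10.04 in TN mix, 5.56, 5.63 and 5.27 in TN alone, 11.49, 11.43 and 11.49 in TMem mix and 11.23, 11.26 and 11.18 in TMem alone. The TN groups were far apart, with TN alone near background, and the TMem groups were high in both cultures. Scd1 was at least 19.05-fold higher in TN mix than in TN alone (adjusted p = 1.54e-10), its TMem effect was 0.25 ± 0.35 (SE), and the difference was 4.44 ± 0.49 (adjusted p = 7.87e-07). Here and below the SE rests on the spread within groups pooled over all 30 arrays of the series, not on the listed repeats alone. With TMem signal subtracted the Scd1 difference was 2.24 and no longer called (adjusted p = 0.094).

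After subtraction 15 of the 18 sterol genes still differed. Insig1, the protein that retains the SREBP activator in the endoplasmic reticulum and is itself an SREBP target, read 10.81, 11.15 and 11.04 in TN mix, 9.49, 9.58 and 9.54 in TN alone, 11.07, 10.98 and 11.03 in TMem mix and 11.13, 11.15 and 11.05 in TMem alone. Every TN mix array lay above every TN alone array, and the TMem groups overlapped. Its difference was 1.55 ± 0.11 (adjusted p = 3.43e-10), and 1.54 after subtraction. Hmgcs1, which starts the mevalonate pathway, differed by 1.42 ± 0.13. Squalene epoxidase (Sqle) differed by 1.15 ± 0.12 and lanosterol demethylase (Cyp51) by 1.32 ± 0.18, with TMem effects between -0.09 and -0.04 for Insig1, Sqle and Cyp51. Of 15 genes of fatty acid synthesis and desaturation, 10 rose in TN mix, 8 differed, all positive (5 after subtraction), and 1 rose and 1 fell in TMem. The desaturases Scd2, Fads1 and Fads2 differed by 1.76 ± 0.21, 1.01 ± 0.16 and 1.91 ± 0.17. Acss2, which makes acetyl-CoA from acetate, was the shared rise of the list, by 0.4 ± 0.07 in TN and 0.4 ± 0.07 in TMem (adjusted p = 0.000203 and 0.00144); its TN rise was not called after subtraction.

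**Figure D3:**
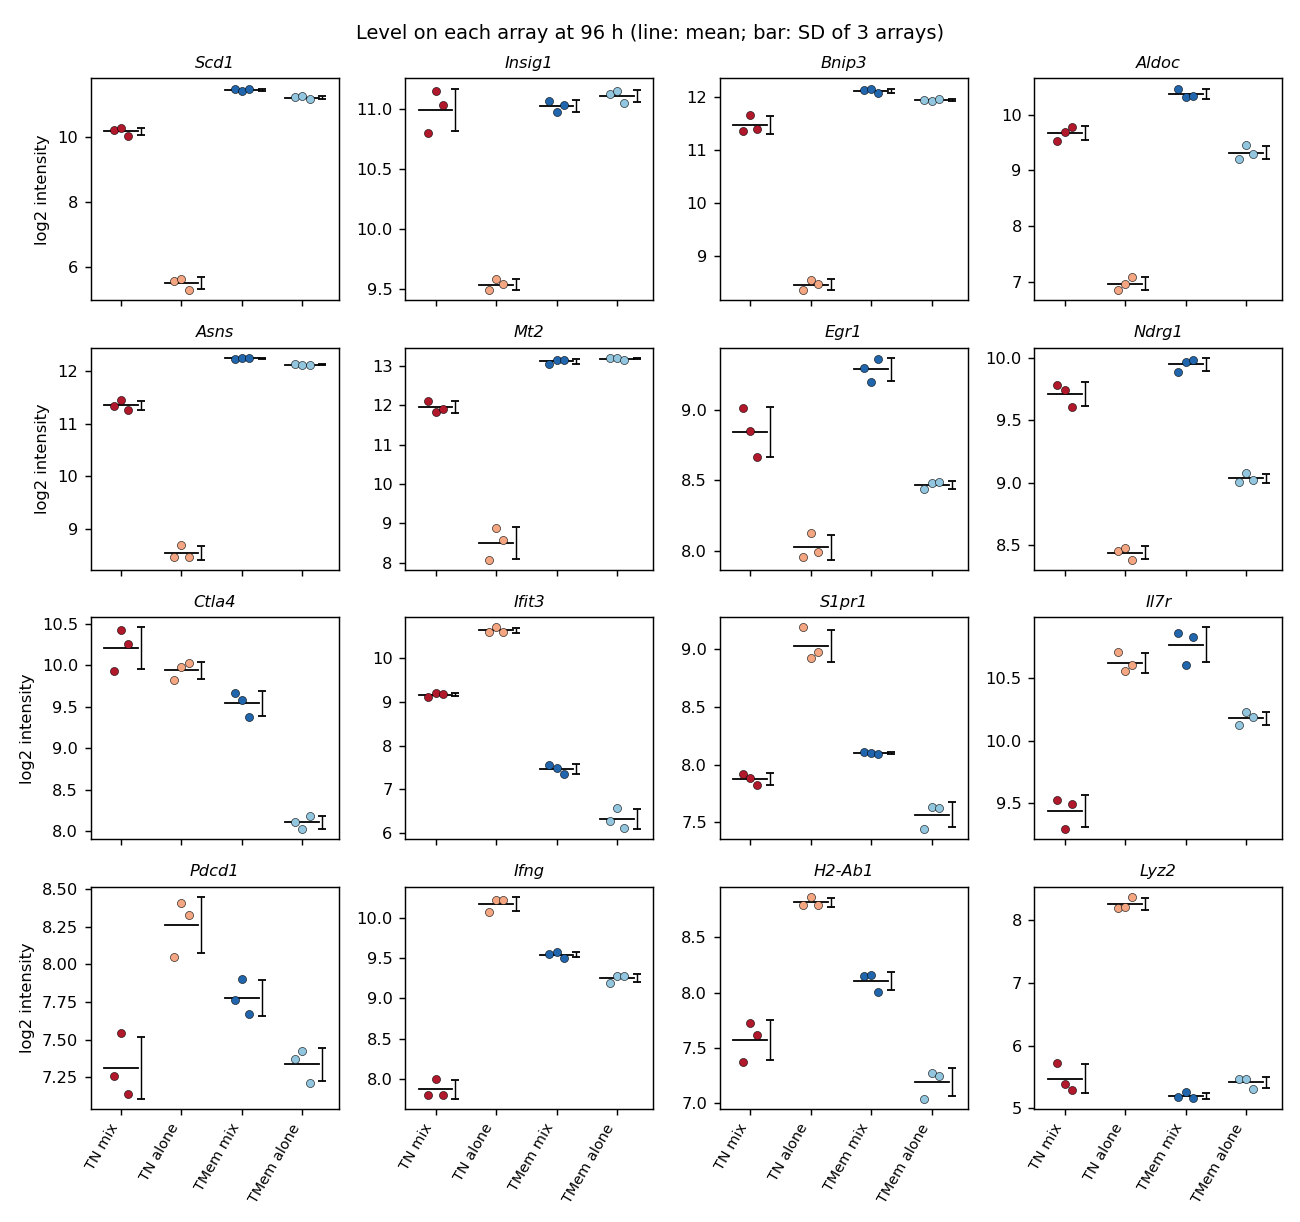
Log2 intensity of 16 genes on each of the 12 arrays, in the order TN mix, TN alone, TMem mix, TMem alone, with the mean (line) and SD (bar, n = 3). Scd1, Insig1, Bnip3, Asns and Mt2 are low only in TN alone, Egr1 and Ndrg1 are higher in both mix groups, and Ifit3, S1pr1, Pdcd1 and H2-Ab1 are lower in TN mix but higher in TMem mix than in the same cells alone.

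Most hypoxia-response and glucose genes rose in TN, and a few rose in both cell types. Of 24 hypoxia-response genes, 20 rose in TN mix and 3 in TMem mix, none fell, and 12 differed, all positive. Of 17 genes of glucose uptake, glycolysis and lactate export, 13 rose and 1 fell in TN mix, 2 rose in TMem mix, and the difference was positive for 9 and negative for 1. The median differences were 0.47 and 0.63. With TMem signal subtracted the hypoxia count was 6 and its median 0.19, and the glucose count 7 positive and 1 negative.

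The factor that drives this program under low oxygen, HIF-1, is known to bind DNA at a core of 5 letters, of which only the form ACGTG was searched. Promoters of 3 members that differed are shown, from RefSeq on GRCm38.p6, 250 bases before to 50 bases after the start of the gene, read 5′ to 3′ on the gene's strand, with each ACGTG on either strand (CACGT on the other) in capitals; overlapping matches form CACGTG. The Bnip3 window is chr7:138909457-138909756, minus strand, the Slc16a3 window chr11:120948817-120949116, plus strand and the Aldoc window chr11:78322823-78323122, plus strand.
Bnip3: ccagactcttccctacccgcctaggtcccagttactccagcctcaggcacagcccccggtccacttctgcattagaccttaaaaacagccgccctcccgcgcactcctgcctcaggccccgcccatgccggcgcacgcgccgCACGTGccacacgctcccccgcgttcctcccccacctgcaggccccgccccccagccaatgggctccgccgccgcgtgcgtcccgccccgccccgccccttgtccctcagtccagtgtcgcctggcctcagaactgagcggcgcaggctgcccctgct
Slc16a3: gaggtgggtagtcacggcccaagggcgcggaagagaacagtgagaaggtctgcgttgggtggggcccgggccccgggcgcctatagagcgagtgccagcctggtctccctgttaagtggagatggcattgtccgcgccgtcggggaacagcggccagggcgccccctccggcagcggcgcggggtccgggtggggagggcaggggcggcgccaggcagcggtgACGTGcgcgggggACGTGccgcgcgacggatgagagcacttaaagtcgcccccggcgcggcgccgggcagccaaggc
Aldoc: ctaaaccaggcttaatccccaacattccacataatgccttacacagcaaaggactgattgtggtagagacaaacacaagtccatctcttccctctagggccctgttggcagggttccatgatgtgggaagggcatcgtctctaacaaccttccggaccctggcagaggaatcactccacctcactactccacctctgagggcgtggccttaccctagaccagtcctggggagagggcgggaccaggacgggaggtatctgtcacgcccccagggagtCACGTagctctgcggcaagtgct
The letters occurred in the windows of 13 of 21 hypoxia-response genes with a promoter in the table (61.9%) and of 8 of 16 glucose genes, against 19.7% of 27025 promoters. The first listed Ak4 window had no ACGTG on either strand. The form GCGTG was not searched or marked, and it occurs in the Ak4 window and in windows shown above.

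Bnip3, a receptor for the removal of mitochondria, read 11.36, 11.66 and 11.4 in TN mix, 8.35, 8.55 and 8.47 in TN alone, 12.13, 12.16 and 12.08 in TMem mix and 11.95, 11.92 and 11.96 in TMem alone. The TN mix arrays lay close below the memory cells and the TN alone arrays far below them. Its difference was 2.84 ± 0.31 (adjusted p = 6.03e-07), and 2.36 after subtraction. Ak4, a mitochondrial adenylate kinase, differed by 3.31 ± 0.36 (adjusted p = 5.59e-07) with a TMem effect of 0.18 ± 0.25. The lactate exporter Slc16a3 read 9.82, 10.12 and 9.79 in TN mix, 7.8, 7.52 and 7.69 in TN alone, 10.06, 10.16 and 10.23 in TMem mix and 10.18, 10.18 and 10.17 in TMem alone, and the TMem groups overlapped. It differed by 2.27 ± 0.25 (adjusted p = 7.4e-07), the glucose transporter Slc2a1 by 1.3 ± 0.18, phosphofructokinase Pfkl by 0.98 ± 0.17, the collagen prolyl hydroxylase subunit P4ha1 by 1.07 ± 0.12 and the vascular growth factor Vegfa by 0.92 ± 0.12. Zdhhc2, a palmitoyltransferase, was another large rise in TN and differed by 2.77 ± 0.35, or 1.65 after subtraction (adjusted p = 0.0548).

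Some genes of the same program rose in both cell types. Aldolase C (Aldoc) read 9.53, 9.69 and 9.79 in TN mix, 6.86, 6.96 and 7.1 in TN alone, 10.47, 10.31 and 10.33 in TMem mix and 9.21, 9.45 and 9.3 in TMem alone. Neither pair of groups overlapped, and the step was larger in TN: 2.7 ± 0.17 against 1.05 ± 0.17 in TMem, a difference of 1.65 ± 0.24 (adjusted p = 6.44e-05) that was not called after subtraction at the Xist-based shares (adjusted p = 0.116). The glucose transporter Slc2a3 rose by 1.83 ± 0.16 in TN and 0.67 ± 0.16 in TMem, a difference of 1.15 ± 0.23. After subtraction that difference was 0.66 (adjusted p = 0.132), and the TMem rise was lost on leaving out any 1 of the 6 TMem arrays, with a highest adjusted p of 0.136. Ndrg1, a stress-response gene induced by low oxygen, read 9.78, 9.74 and 9.6 in TN mix, 8.45, 8.48 and 8.38 in TN alone, 9.89, 9.97 and 9.98 in TMem mix and 9.0, 9.08 and 9.02 in TMem alone. Both mix groups lay clear of their own alone groups, by 1.27 ± 0.09 in TN and 0.91 ± 0.09 in TMem, and the difference of 0.36 ± 0.12 was not called (adjusted p = 0.124). Bnip3l, a second mitophagy receptor, rose by 0.7 and 0.44, the prolyl hydroxylase subunit P4ha2 by 1.01 and 0.67, and the mitochondrial protein gene Mgarp by 1.81 and 1.21 in TN and in TMem, where the TN value of Mgarp starts from a level near background and allows at least 1.15-fold.

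The lists of amino acid supply and metal handling held calls in TN and none in TMem. In TMem only 0.989% of all genes rose and 0.147% fell, so that absence is near the share over all genes. Of 26 ATF4 targets and amino acid genes, 15 rose in TN mix, none was called in TMem, where 1 had an unadjusted p below 0.05, and 8 differed, all positive (7 after subtraction). Asparagine synthetase (Asns) read 11.34, 11.45 and 11.27 in TN mix, 8.47, 8.69 and 8.46 in TN alone, 12.24, 12.25 and 12.25 in TMem mix and 12.15, 12.12 and 12.12 in TMem alone. The TN groups did not overlap, and the difference was 2.69 ± 0.41 (adjusted p = 0.00012; 1.88 after subtraction, and 1.66 at the Xist-based shares with an adjusted p of 0.0817). Chac1, which degrades glutathione, differed by 1.21 ± 0.18, the neutral amino acid transporter Slc1a4 by 1.14 ± 0.19 and the mitochondrial alanine transaminase Gpt2 by 1.21 ± 0.19.

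Of 6 metallothionein and zinc export genes, 3 rose in TN mix, none was called in TMem, where 0 had an unadjusted p below 0.05, and the same 3, Mt1, Mt2 and the zinc exporter Slc30a1, differed. Mt2, a small protein that binds zinc and copper, read 12.11, 11.82 and 11.92 in TN mix, 8.08, 8.89 and 8.57 in TN alone, 13.04, 13.16 and 13.16 in TMem mix and 13.19, 13.19 and 13.16 in TMem alone. TN mix lay above TN alone on every array, and both TMem groups lay above TN mix. The difference was 3.5 ± 0.38 (adjusted p = 6.03e-07), and 1.99 after subtraction (adjusted p = 0.0101), with 1.17 and no call at the Xist-based shares (adjusted p = 0.644). The difference of Mt1 was 2.55 ± 0.31 as deposited and -0.98 after subtraction (adjusted p = 0.247), which turned its direction, but 0.33 at the Xist-based shares (adjusted p = 0.837). Slc30a1 kept its call, at 0.67 ± 0.12 and 0.74. The Mt2 promoter, at chr8:94172368-94172667, plus strand of the same build, shows in capitals the metal response core TGCNCNC, known as the site of the zinc sensor MTF1, wherever it occurs on either strand.
Mt2: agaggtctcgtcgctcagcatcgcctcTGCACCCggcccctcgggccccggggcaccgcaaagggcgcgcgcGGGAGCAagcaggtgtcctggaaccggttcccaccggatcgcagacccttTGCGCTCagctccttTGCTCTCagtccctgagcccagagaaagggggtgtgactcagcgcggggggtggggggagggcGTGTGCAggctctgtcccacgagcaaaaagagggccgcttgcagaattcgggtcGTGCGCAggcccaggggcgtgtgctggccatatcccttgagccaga
It held 6 matches, and all 6 genes of the list held at least 1, against 50.4% of all promoters, so the letters are common.

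Several homing and quiescence genes had negative differences. Of 19 genes of naive and central memory cells, 9 fell and 1 rose in TN mix, 4 rose and none fell in TMem mix, and 11 differed, all negative, with a median difference of -0.67. S1pr1, the receptor by which T cells leave lymph nodes, read 7.92, 7.88 and 7.82 in TN mix, 9.19, 8.92 and 8.97 in TN alone, 8.11, 8.1 and 8.09 in TMem mix and 7.44, 7.63 and 7.63 in TMem alone. TN mix was below TN alone and TMem mix above TMem alone, with no overlap in either pair. The effects were -1.15 ± 0.08 in TN and 0.54 ± 0.08 in TMem (adjusted p = 8.98e-11 and 0.000405), and their difference -1.69 ± 0.12 (adjusted p = 3.43e-10). Il7r, the receptor chain for the survival cytokine IL-7, read 9.53, 9.29 and 9.49 in TN mix, 10.71, 10.56 and 10.61 in TN alone, 10.86, 10.61 and 10.83 in TMem mix and 10.13, 10.23 and 10.19 in TMem alone. Its TN effect was -1.19 ± 0.16 (adjusted p = 5.02e-06), its TMem effect of 0.59 ± 0.16 missed the threshold (adjusted p = 0.0736), and the difference of -1.77 ± 0.23 became -3.97 after subtraction. Klf2, the quiescence factor that drives S1pr1, differed by -0.89 ± 0.18, and the IL-6 receptor chain Il6ra by -1.19 ± 0.2. Dapl1, which is abundant in naive T cells, had effects of 0.2 ± 0.11 in TN and 1.12 ± 0.11 in TMem, where it rose, a difference of -0.92 ± 0.16 that was not called after subtraction at the Xist-based shares (adjusted p = 0.129). Ccr7, the lymph node homing receptor, differed by -0.6 ± 0.17 (adjusted p = 0.0458), a call lost in 11 of 12 fits that left out 1 array (highest adjusted p 0.131) and after subtraction. Lef1 had a difference of -0.41 ± 0.13 that was not called in the main fit. With only the 96 h groups in the fit it was called (adjusted p = 0.0192), as without the 0 h arrays (0.00207) and with array weights (0.000238).

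Chemokine and chemokine receptor genes split, and few integrins were called for the difference. Of 18 chemokines and receptors, 4 rose and 6 fell in TN mix and 2 rose in TMem mix, and the difference was positive for 1 and negative for 6. Ccr2, a receptor for inflammatory chemokines, read 9.23, 9.28 and 9.35 in TN mix, 6.58, 7.33 and 6.96 in TN alone, 11.0, 10.8 and 10.9 in TMem mix and 10.77, 10.85 and 10.75 in TMem alone, so TN mix lay between TN alone and the memory cells. Its difference of 2.22 ± 0.46 (adjusted p = 0.00373) turned to -0.93 after subtraction (adjusted p = 0.337) and was 0.27 at the Xist-based shares (adjusted p = 0.875). Ly6a2, a gene of the Ly6 surface protein family with a near copy in Ly6a that makes its signal uncertain, likewise differed by 2.16 ± 0.47 as deposited and -1.14 after subtraction. Ccr4, a receptor of skin-homing cells, differed by -1.97 ± 0.31, and Ccr9, a receptor of gut-homing cells, by -1.81 ± 0.36, with the TN mix level of Ccr9 at least 2.71-fold below that of TN alone. Ccl3, an inflammatory chemokine, read 9.47, 9.39 and 9.32 in TN mix, 10.6, 10.98 and 10.74 in TN alone, 10.28, 10.36 and 10.28 in TMem mix and 9.53, 9.68 and 9.61 in TMem alone and differed by -2.08 ± 0.49 (adjusted p = 0.0113), with a TMem effect of 0.7 ± 0.35 that was not called. The Ccl3 effect in TMem was called with only the 96 h groups in the fit (adjusted p = 0.00102) and without the 0 h arrays (4.95e-06). Shared rises were Cxcr4, a homing receptor for bone marrow, by 0.46 in TN and 0.68 in TMem, and the chemokine Ccl5, by 0.87 and 0.95. The Cxcr4 rise in TN was not called without TN mix repeat 2 (adjusted p = 0.0595), and the Ccl5 rise in TMem was lost without TMem mix repeat 2 or 3 or TMem alone repeat 1 or 3 (highest adjusted p 0.0673). After subtraction the Ccl5 rise in TN was not called.

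Of 15 integrins, 2 rose and 2 fell in TN mix, 1 rose in TMem mix, and 2 differed, both negative. Over all genes 7.02% rose and 3.66% fell in TN, 0.989% rose in TMem and 3.55% differed. The integrin counts are too few to read as a result about the list. Itgae, the CD103 chain that holds T cells in epithelia, read 8.39, 8.67 and 8.42 in TN mix, 10.53, 10.54 and 10.6 in TN alone, 6.4, 6.48 and 6.45 in TMem mix and 6.53, 6.51 and 6.38 in TMem alone. TN mix was below TN alone and both memory groups were low and level, for a difference of -2.03 ± 0.38 (adjusted p = 0.00116). Itga4, the chain of VLA-4, differed by -1.38 ± 0.3, and by -1.02 after subtraction, not called (adjusted p = 0.0633). Itgb3 rose in both, by 0.58 in TN and 0.62 in TMem.

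**Figure D4:**
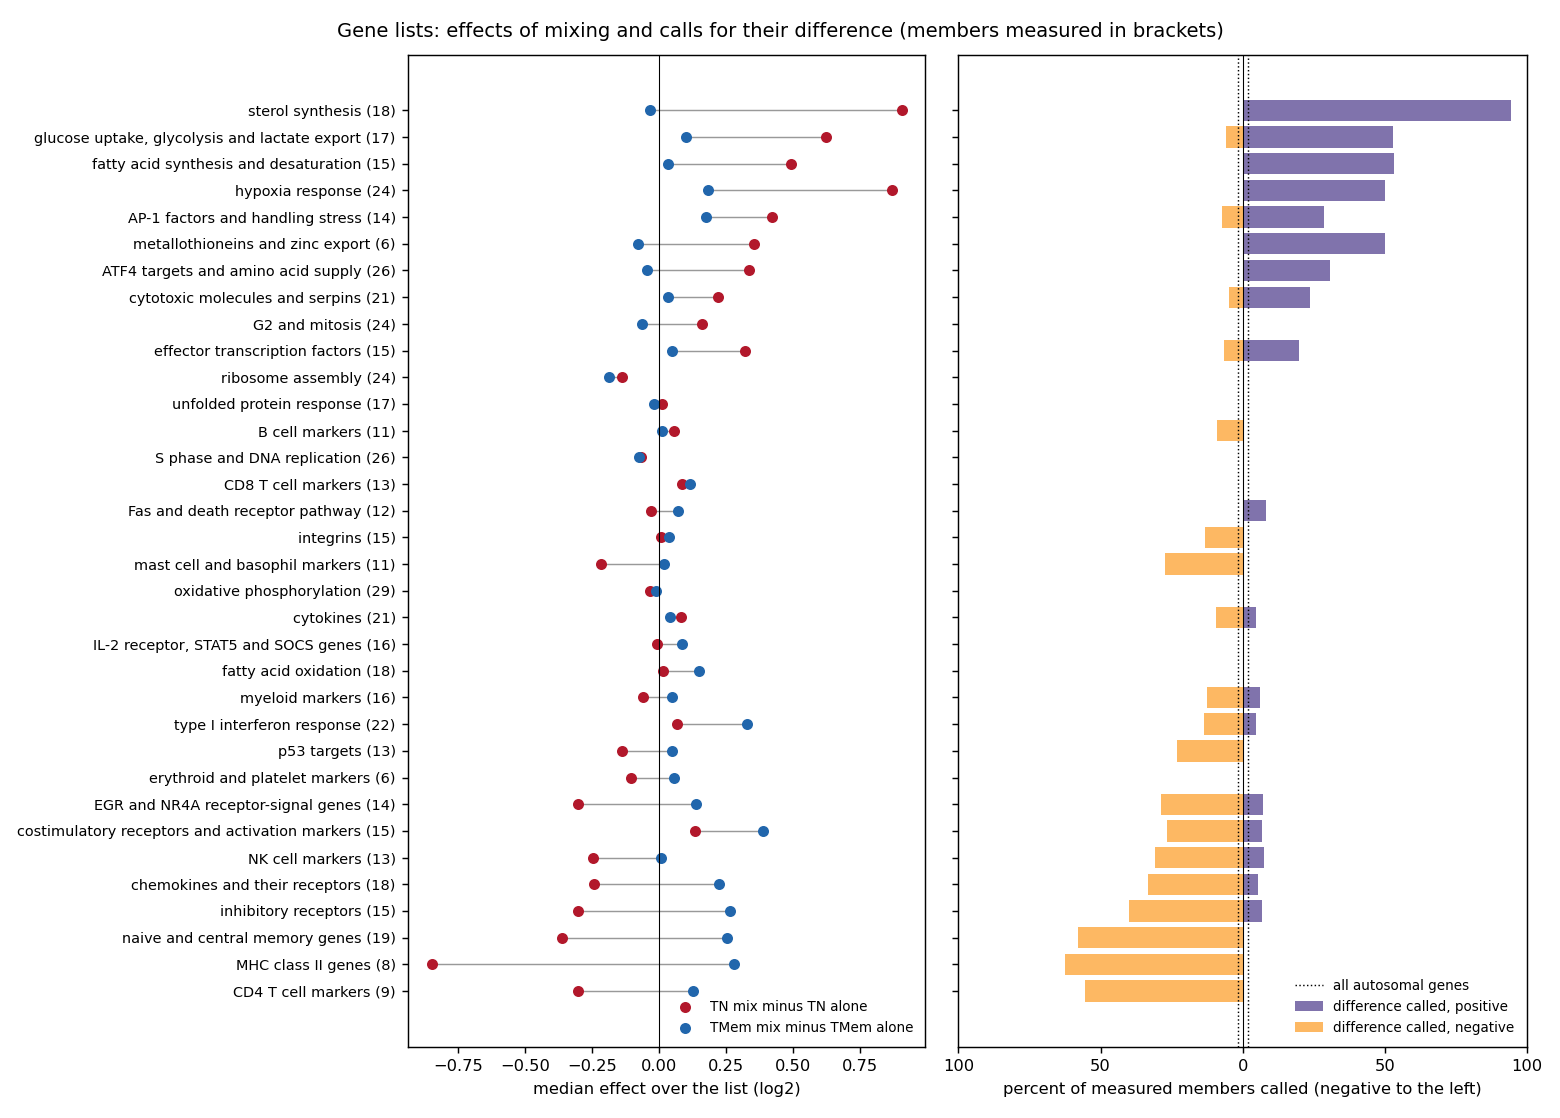
Left, the median effect of mixing in TN (red) and TMem (blue) over the measured autosomal members of each gene list, ordered by the median difference. Right, the percent of members called for the difference, positive to the right and negative to the left; dotted lines mark 1.92% and 1.64% for all autosomal genes.

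Several inhibitory receptors fell in TN, rose in TMem or did both. Of 15, 6 fell and 1 rose in TN mix, 4 rose and none fell in TMem mix, 2 were called in opposite directions, and the difference was negative for 6 and positive for 1. Ctla4, which competes with CD28 for its ligands, read 9.93, 10.43 and 10.26 in TN mix, 9.82, 9.98 and 10.02 in TN alone, 9.67, 9.58 and 9.37 in TMem mix and 8.11, 8.02 and 8.18 in TMem alone. The TN groups overlapped, while TMem mix was above TMem alone on every array: the effects were 0.26 ± 0.14 in TN and 1.44 ± 0.14 in TMem (adjusted p = 0.263 and 3.84e-07), and the difference -1.17 ± 0.19 (adjusted p = 0.000298). Pdcd1, which encodes PD-1, read 7.26, 7.54 and 7.14 in TN mix, 8.05, 8.41 and 8.32 in TN alone, 7.76, 7.9 and 7.67 in TMem mix and 7.37, 7.43 and 7.21 in TMem alone. Its effects were -0.95 ± 0.11 in TN and 0.44 ± 0.11 in TMem, for a difference of -1.39 ± 0.16 (adjusted p = 1.42e-06). The TMem rise (adjusted p = 0.0492) was lost in 8 of 12 fits without 1 array, among them all 6 without a TMem array, with a highest adjusted p of 0.33. Lag3, a receptor that binds MHC class II, read 7.23, 7.35 and 7.31 in TN mix, 7.58, 7.63 and 7.65 in TN alone, 7.38, 7.44 and 7.37 in TMem mix and 6.91, 6.95 and 6.91 in TMem alone, and its effects were -0.32 ± 0.08 in TN and 0.48 ± 0.08 in TMem, with no overlap in either pair. Cd200 differed by -1.12 ± 0.16 between measured means, but TMem alone was near background, so that size is not fixed. Entpd1, the ecto-enzyme CD39, was the positive one, at 1.15 ± 0.18, and turned to -1.33 after subtraction.

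Costimulatory receptors and activation markers showed rises in both cell types and falls in TN. Of 15, 3 rose and 3 fell in TN mix, 5 rose and none fell in TMem mix, and the difference was positive for 1 and negative for 4. The receptor gene Tnfrsf18 (GITR) read 10.57, 10.43 and 10.41 in TN mix, 10.88, 10.98 and 10.91 in TN alone, 10.66, 10.74 and 10.75 in TMem mix and 10.21, 10.33 and 10.27 in TMem alone, opposite in the 2 cell types with no overlap in either pair, and differed by -0.91 ± 0.12 (adjusted p = 1.3e-05). Tnfrsf4 (OX40) had effects of -0.32 ± 0.12 in TN and 0.59 ± 0.12 in TMem, where it rose, and differed by -0.91 ± 0.17, or -1.74 after subtraction; its TMem call was lost without TMem mix repeat 2 or TMem alone repeat 1 (highest adjusted p 0.0791). Cd80, a ligand of CD28 and CTLA-4, had a TN effect of -1.5 ± 0.13 and differed by -1.64 ± 0.18, or -2.96 after subtraction. Cd28 itself was a shared rise and read 10.47, 10.47 and 10.37 in TN mix, 9.71, 9.82 and 9.7 in TN alone, 10.42, 10.4 and 10.34 in TMem mix and 9.74, 9.79 and 9.8 in TMem alone; both mix groups lay above both alone groups, and the effects were 0.69 ± 0.1 in TN and 0.61 ± 0.1 in TMem. The transferrin receptor Tfrc was the positive one, at 0.59 ± 0.14, and was not called with arrays centred on their medians.

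Genes induced by T cell receptor signals did not move as 1 group. Of 14 EGR, NR4A and related genes, 4 rose and 7 fell in TN mix, 1 rose and 1 fell in TMem mix, and the difference was positive for 1 and negative for 4. Egr1, an immediate early factor, read 9.01, 8.85 and 8.67 in TN mix, 7.96, 8.13 and 8.0 in TN alone, 9.3, 9.2 and 9.36 in TMem mix and 8.44, 8.48 and 8.49 in TMem alone. Its rises were 0.81 ± 0.11 in TN and 0.82 ± 0.11 in TMem and their difference 0.00 ± 0.15, with both mix groups clear of their own alone groups. Nr4a1, an orphan nuclear receptor of the same response, fell in TN instead and read 7.57, 7.78 and 7.6 in TN mix, 8.7, 8.65 and 8.68 in TN alone, 7.93, 7.9 and 7.94 in TMem mix and 7.71, 7.79 and 7.82 in TMem alone, for a difference of -1.18 ± 0.19 (adjusted p = 0.000294). Egr2 and Egr3 differed by -1.29 ± 0.24 and -0.73 ± 0.14. Dusp6, a phosphatase of ERK, rose in TN by 1.82 ± 0.1 and differed by 1.54 ± 0.15. Dusp2, a phosphatase of the same family, fell in both, with effects of -0.57 in TN and -0.34 in TMem.

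Of 14 AP-1 and handling stress genes, 10 rose and 2 fell in TN mix, 2 rose in TMem mix, and the difference was positive for 4 and negative for 1. Fosb read 8.39, 8.45 and 8.25 in TN mix, 7.07, 7.07 and 6.94 in TN alone, 8.32, 8.29 and 8.31 in TMem mix and 7.44, 7.45 and 7.36 in TMem alone, a rise of 1.34 ± 0.09 in TN and 0.89 ± 0.09 in TMem. Its difference of 0.45 ± 0.13 was at the threshold (adjusted p = 0.049) and was lost in 11 of 12 fits without 1 array (highest adjusted p 0.146). Fos rose by 0.96 and 0.46 and differed by 0.49 ± 0.12, a call lost without TN alone repeat 2 or TMem alone repeat 2 (highest adjusted p 0.0617). Atf3, a factor of the stress response, read 8.91, 9.05 and 8.96 in TN mix, 7.43, 7.36 and 7.3 in TN alone, 9.3, 9.29 and 9.21 in TMem mix and 8.99, 9.09 and 9.01 in TMem alone and differed by 1.37 ± 0.21 (adjusted p = 0.000141). Hspa1a, a heat shock protein gene, differed by 0.46 ± 0.13 and Jund, an AP-1 subunit, by -0.52 ± 0.15; those calls were lost in 7 and 10 of 12 fits without 1 array. These genes are also known to respond to cell handling, whose part was not tested.

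Effector cytokine and cytotoxic genes gave separate patterns. Ifng, the main macrophage-activating cytokine of these cells, read 7.8, 8.0 and 7.8 in TN mix, 10.08, 10.23 and 10.24 in TN alone, 9.56, 9.58 and 9.51 in TMem mix and 9.2, 9.29 and 9.28 in TMem alone. TN mix was the lowest group and TN alone the highest, and both TMem groups lay between them. The TN effect was -2.32 ± 0.45 and the difference -2.61 ± 0.63 (adjusted p = 0.0138), or -4.49 after subtraction. Il10, an anti-inflammatory cytokine, went the other way and read 7.11, 7.39 and 6.96 in TN mix, 6.11, 6.34 and 5.94 in TN alone, 7.17, 7.02 and 6.92 in TMem mix and 6.96, 7.29 and 7.04 in TMem alone, for a difference of 1.08 ± 0.21 (adjusted p = 0.0018). Over all genes 7.02% rose and 3.66% fell in TN, 0.989% rose in TMem and 3.55% differed. Over 21 cytokines 2 rose and 2 fell in TN mix, 1 rose in TMem mix, and the difference was positive for 1 and negative for 2. The other negative one was Tnfsf8, the CD30 ligand, at -1.19 ± 0.27, not called after subtraction (adjusted p = 0.063). Il2 was near background in all 4 groups.

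Of 21 cytotoxic molecules and serpins, 10 rose and 2 fell in TN mix, none was called in TMem, where 3 had an unadjusted p below 0.05, and the difference was positive for 5 and negative for 1. The absence of TMem calls is near the share over all genes, of which 0.989% rose and 0.147% fell. After subtraction the split was 2 positive and 7 negative, and the median difference of 0.27 became -0.13, as the construction of the subtraction sets for genes high in TMem. Prf1 read 8.02, 7.99 and 7.87 in TN mix, 7.75, 7.78 and 7.69 in TN alone, 11.8, 11.75 and 11.72 in TMem mix and 11.77, 11.87 and 11.85 in TMem alone, with effects of 0.22 ± 0.15 in TN and -0.07 ± 0.15 in TMem that were not called, and the TN mix arrays far below the memory cells. Gzmb, granzyme B, read 12.77, 12.93 and 12.91 in TN mix, 12.9, 12.97 and 12.97 in TN alone, 13.24, 13.17 and 13.17 in TMem mix and 13.29, 13.27 and 13.18 in TMem alone, with a difference of -0.02 ± 0.11 that was not called. Gzma had a difference of 0.27 ± 0.29 and Cd44, an activation marker, of 0.23 ± 0.32, neither called. Gzmk differed by 1.04 ± 0.3 (adjusted p = 0.0471), a call lost in all 12 fits without 1 array (highest adjusted p 0.129), and by -0.28 after subtraction.

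Fasl, the ligand of the death receptor Fas, read 7.15, 8.15 and 7.82 in TN mix, 6.27, 6.43 and 6.27 in TN alone, 9.3, 9.2 and 8.99 in TMem mix and 9.32, 9.42 and 9.4 in TMem alone. TN mix lay between TN alone and the memory cells, and the difference was 1.6 ± 0.3 (adjusted p = 0.00114), or 0.29 after subtraction (adjusted p = 0.71). Of 12 genes of the Fas pathway, 2 rose in TN mix, none was called in TMem, where 1 had an unadjusted p below 0.05, and Fasl alone differed. Fas had effects of 0.03 ± 0.2 in TN and 0.51 ± 0.2 in TMem, neither called. Tnfsf10 (TRAIL), a second death ligand, fell in TN and differed by -1.13 ± 0.12 (adjusted p = 3.3e-07). The intracellular protease inhibitor Serpinb6a differed by 1.39 ± 0.29, and by 0.6 after subtraction (adjusted p = 0.459).

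Of 15 effector transcription factors, 9 rose and 1 fell in TN mix, 2 rose in TMem mix, and the difference was positive for 3 and negative for 1. The positive ones were Eomes, a T-box factor of effector and memory cells, at 0.53 ± 0.12, Bhlhe40 at 0.85 ± 0.17 and Nfil3 at 1.0 ± 0.21. None of the 3 was called after subtraction, where they had 0.35, 0.17 and -0.93. The negative one was Ikzf3, which encodes Aiolos, at -0.53 ± 0.15, a call lost in 10 of 12 fits without 1 array. Tbx21, the T-bet gene, and Prdm1, the Blimp-1 gene, had differences of 0.13 ± 0.21 and 0.09 ± 0.22, neither called. Stat4, which carries the IL-12 signal, was a shared rise and read 11.2, 11.07 and 11.24 in TN mix, 10.53, 10.68 and 10.64 in TN alone, 10.91, 10.79 and 10.98 in TMem mix and 10.3, 10.35 and 10.28 in TMem alone, with 0.56 ± 0.08 in TN, 0.59 ± 0.08 in TMem and a difference of -0.03 ± 0.11.

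Some interferon-stimulated genes rose in TMem, and those called in TN were split. Of 22, 5 rose and 1 fell in TN mix, 6 rose and none fell in TMem mix, 2 rose in both, and the difference was positive for 1 and negative for 3. The promoters of Ifit3, opposite in the 2 cell types, and of its neighbour Ifit1, a rise called in TMem and not in TN, are shown with the core of the interferon-stimulated response element in capitals, searched as GAAA, any 2 bases and GAAA again on either strand. The windows are chr19:34583279-34583578, plus strand and chr19:34640639-34640938, plus strand of GRCm38.p6.
Ifit3: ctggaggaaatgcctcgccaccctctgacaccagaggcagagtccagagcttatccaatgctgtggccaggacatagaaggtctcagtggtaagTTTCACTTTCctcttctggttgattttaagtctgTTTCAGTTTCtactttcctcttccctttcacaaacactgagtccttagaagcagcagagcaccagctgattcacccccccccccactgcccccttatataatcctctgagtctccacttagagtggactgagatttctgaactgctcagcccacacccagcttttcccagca
Ifit1: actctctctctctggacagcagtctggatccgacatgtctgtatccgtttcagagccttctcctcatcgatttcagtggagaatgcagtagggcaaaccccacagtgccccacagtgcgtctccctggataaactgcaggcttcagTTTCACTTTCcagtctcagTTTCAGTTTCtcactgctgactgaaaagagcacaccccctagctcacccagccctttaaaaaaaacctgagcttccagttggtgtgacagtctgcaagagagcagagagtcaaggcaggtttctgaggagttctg
The letters occurred in 9 of 16 windows of the list (56.2%) and in 3.5% of 27025 promoters.

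Ifit3, an antiviral protein gene, read 9.13, 9.21 and 9.18 in TN mix, 10.62, 10.71 and 10.61 in TN alone, 7.55, 7.49 and 7.34 in TMem mix and 6.27, 6.58 and 6.11 in TMem alone. TN alone was the highest group, TN mix lay below it, and TMem mix lay above TMem alone, with no overlap in either pair. The effects were -1.48 ± 0.18 in TN and 1.14 ± 0.18 in TMem, and the difference -2.62 ± 0.26 (adjusted p = 1.08e-07), or -2.2 after subtraction. Ifit1 read 8.33, 8.21 and 8.34 in TN mix, 8.52, 8.66 and 8.39 in TN alone, 7.33, 7.21 and 7.36 in TMem mix and 6.18, 6.63 and 6.47 in TMem alone, with effects of -0.23 ± 0.15 in TN and 0.87 ± 0.15 in TMem and a difference of -1.1 ± 0.21 (adjusted p = 0.0017). Rsad2, viperin, rose in both, by 0.89 ± 0.13 in TN and 0.67 ± 0.13 in TMem. Oas3, a sensor of double-stranded RNA, rose in TN by 0.92 ± 0.11 and gave the positive difference, 0.71 ± 0.16, which was not called with arrays centred on their medians. Oasl2 differed by -0.81 ± 0.21 (adjusted p = 0.0278), a call lost in 9 of 12 fits without 1 array and after subtraction (adjusted p = 0.311).

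Most MHC class II genes fell in TN mix, as did several genes known from cells other than CD8+ T cells. Of 8 class II pathway genes, 5 fell and 1 rose in TN mix, 3 rose in TMem mix, and 5 differed, all negative. H2-Aa, the alpha chain of I-A, read 6.6, 6.75 and 6.53 in TN mix, 9.35, 9.54 and 9.48 in TN alone, 5.95, 5.85 and 5.9 in TMem mix and 5.78, 5.83 and 5.87 in TMem alone, so the TN alone arrays stood apart, and TMem alone was near background with TMem mix just above it. Its difference was -2.91 ± 0.23 (adjusted p = 3.19e-09). H2-Ab1, the beta chain, read 7.37, 7.73 and 7.62 in TN mix, 8.8, 8.87 and 8.79 in TN alone, 8.15, 8.16 and 8.01 in TMem mix and 7.04, 7.28 and 7.24 in TMem alone; it fell in TN and rose in TMem with no overlap in either pair, and differed by -2.17 ± 0.23 (adjusted p = 4.47e-07). H2-Ob, part of the inhibitor H2-O, was opposite too, at -0.61 ± 0.07 in TN and 0.47 ± 0.07 in TMem, and the invariant chain Cd74 differed by -1.93 ± 0.21.

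Lyz2, the lysozyme of myeloid cells, read 5.73, 5.39 and 5.29 in TN mix, 8.2, 8.2 and 8.37 in TN alone, 5.19, 5.25 and 5.17 in TMem mix and 5.47, 5.46 and 5.31 in TMem alone. The TN alone arrays were the only ones above background, and Lyz2 was at least 4.84-fold lower in TN mix. The difference between its measured means, -2.58 ± 0.27 (adjusted p = 3.44e-07), rests on 3 groups near background and its size is not fixed beyond that bound. Klrb1b, an NK cell receptor, was likewise near background in all groups but TN alone and was at least 2.38-fold lower in TN mix. Cpa3, a mast cell protease, read 6.55, 7.48 and 6.54 in TN mix, 8.49, 8.64 and 8.6 in TN alone, 7.01, 7.28 and 6.88 in TMem mix and 6.84, 6.67 and 6.6 in TMem alone and differed by -2.08 ± 0.39. Gpr83, a receptor enriched in regulatory CD4+ T cells, read 6.27, 6.21 and 6.18 in TN mix, 8.43, 8.85 and 8.85 in TN alone, 5.78, 6.17 and 6.05 in TMem mix and 5.95, 5.83 and 6.08 in TMem alone and differed by -2.54 ± 0.24. Kit, the stem cell factor receptor of mast cells, differed by -1.52 ± 0.13, and Izumo1r, the folate receptor of regulatory T cells, by -1.4 ± 0.16. Lgals3, galectin-3, was high in all groups and highest in memory cells, and differed by -2.09 ± 0.32, or -4.83 after subtraction. The myeloid gene Ly86 went the other way, at 1.29 ± 0.24.

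The difference was called for 1 of 11 B cell markers, 3 of 11 mast cell and basophil markers and 5 of 9 CD4 T cell markers, all negative. Over all genes it was positive for 1.92% and negative for 1.64%. Of 16 myeloid markers it was positive for 1 and negative for 2, of 13 NK cell markers positive for 1 and negative for 4, and of 6 erythroid and platelet markers none was called in limma and 2 had an unadjusted p below 0.05. Over the whole marker lists, the summed linear intensity of the 8 class II genes was 2245 to 2440 in TN mix, against 3838 to 4317 in TN alone, and 1399 to 1436 in TMem mix against 956 to 1069 in TMem alone. In TN mix against TN alone it was, for 16 myeloid markers, 2135 to 2276 against 3560 to 3792, for 11 B cell markers 1025 to 1102 against 1302 to 1405, for 11 mast cell and basophil markers 740 to 827 against 1262 to 1362, for 13 NK cell markers 2297 to 2552 against 2496 to 2814, and for 6 erythroid and platelet markers 632 to 745 against 697 to 806. The 9 CD4 T cell markers summed to 2680 to 3114 in TN mix and 3452 to 3837 in TN alone, and to 2156 to 2284 in TMem mix and 1561 to 1643 in TMem alone, none of them near background. The myeloid markers summed to 4658 to 4798 in TMem mix and 3929 to 4357 in TMem alone, above both TN groups. In each TMem group 8 of the 16 were near background, Lyz2 among them. The NK cell markers were also higher in TMem, at 4820 to 5470 in the mix and 4616 to 4947 alone. In TMem mix the B cell, mast cell and erythroid lists summed to 780 to 837, 736 to 814 and 594 to 649. Of the myeloid list Adgre1, Fcgr1, Clec7a and S100a8 were near background in all 4 groups, of the B cell list Cd79a, Ms4a1, Ebf1, Fcrla, Cr2 and Fcer2a, and of the mast cell list Mcpt4, Ms4a2, Fcer1a and Cma1. The 13 CD8 T cell markers, which check the label, summed to 41499 to 43725 in TN mix and 40917 to 41691 in TN alone, and to 36558 to 38122 in TMem mix and 34322 to 36421 in TMem alone. None of the 13 was called for the difference, and 1 had an unadjusted p below 0.05. The part of other cells in the lower TN mix values was not tested, and fewer cells of a type and less RNA per cell cannot be told apart.

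The remaining opposite genes named by size were Ms4a4c, a membrane protein of the CD20 family, at -0.88 ± 0.16 in TN and 0.91 ± 0.16 in TMem, and the arsenic methyltransferase As3mt, Tcp11l2, the tetraspanin Tspan32 and the B cell receptor chain Cd79b. Ms4a4c read 8.74, 9.07 and 8.94 in TN mix, 9.77, 9.8 and 9.82 in TN alone, 8.82, 8.68 and 8.32 in TMem mix and 7.65, 7.85 and 7.6 in TMem alone, with no overlap in either pair and a difference of -1.79 ± 0.23 (adjusted p = 6.5e-06). As3mt, Tcp11l2, Tspan32 and Cd79b differed by -1.39, -1.08, -1.1 and -1.19; their TMem rises were 0.59, 0.56, 0.5 and 0.48 and were each lost in 2 to 5 of 12 fits without 1 array, among them those without TMem mix repeat 1. Ppp2r2c, the reverse case, read 6.34, 6.27 and 5.99 in TN mix, 5.85, 5.75 and 5.63 in TN alone, 7.82, 7.78 and 7.66 in TMem mix and 8.12, 8.33 and 8.45 in TMem alone, with 0.46 ± 0.12 in TN, where TN alone was near background and the rise at least 1.21-fold, and -0.55 ± 0.12 in TMem. Its TN call was lost in 3 and its TMem call in 4 of 12 such fits (highest adjusted p 0.0771 and 0.157), and its TN effect was not called after subtraction. Of 13 p53 targets, 3 differed, all negative: Phlda3 and Zmat3, which fell in TN, at -0.99 ± 0.17 and -0.84 ± 0.14, and Trp53inp1, which rose in TMem by 0.47 ± 0.07, at -0.6 ± 0.1.

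The other shared rises named by size were Nrn1, Kcnma1 and Fam183b. Nrn1, neuritin, rose by 1.41 ± 0.17 in TN and 1.1 ± 0.17 in TMem, and its TN rise was not called after subtraction. Kcnma1, a potassium channel gene, read 12.58, 12.4 and 12.36 in TN mix, 11.48, 11.57 and 11.64 in TN alone, 7.13, 6.98 and 7.42 in TMem mix and 6.21, 6.06 and 6.11 in TMem alone, at levels far higher in TN than in TMem, and rose by 0.89 ± 0.14 and 1.05 ± 0.14. Fam183b rose by 1.4 ± 0.11 and 0.88 ± 0.11, with TN alone near background, so that the TN rise was at least 2.38-fold. Shared falls were few and small. Dusp2 read 8.07, 8.11 and 8.12 in TN mix, 8.66, 8.7 and 8.65 in TN alone, 8.59, 8.67 and 8.49 in TMem mix and 8.89, 8.95 and 8.93 in TMem alone and kept both calls in every fit without 1 array. Rpl12, a ribosomal protein gene, had effects of -0.4 in TN and -0.41 in TMem, and the long non-coding RNA Dancr -0.49 and -0.6. Spen, a transcriptional repressor, had -0.47 and -0.34, and Usp36, a nucleolar deubiquitinase, -0.44 and -0.31. Cluh, which binds mRNAs of mitochondrial proteins, had -0.26 and -0.33, and the glycosyltransferase B3galnt2 -0.24 and -0.27. The TMem calls of these 6 were lost in 3 to 10 of 12 fits without 1 array, with adjusted p up to 0.273, and the TN calls of Dancr, Cluh and B3galnt2 in 3, 4 and 5. The Dancr effect in TN was -0.29 without TN mix repeat 1 (adjusted p = 0.202).

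The lists for oxidative phosphorylation, fatty acid oxidation, ribosome assembly, S phase, G2 and mitosis, the unfolded protein response and IL-2 receptor signals held no called difference in the main limma fit. Their numbers of members with an unadjusted p below 0.05 were 0 of 29, 1 of 18, 0 of 24, 1 of 26, 6 of 24, 2 of 17 and 3 of 16, against 2674 of all 19103 genes (14%). After subtraction 2 of the 16 IL-2 receptor genes differed, both negative, and no member of the other lists did. With only the 96 h groups in the fit the differences of Il18r1 (-0.598, adjusted p = 0.0122) and Xbp1 (-0.415, 0.0435) were called. Array weights gave calls in several of these lists. In TN mix 3 of the 24 G2 and mitosis genes rose, Cenpa by 0.45 ± 0.1 among them, and 1 of the 29 oxidative phosphorylation genes fell. The ribosome assembly list had 1 fall in TN mix and 1 in TMem mix, in different genes, with medians of -0.138 and -0.187. In TMem 9 of its 24 genes had an unadjusted p below 0.05, against 1369 of all 19103. The unfolded protein response list had 2 rises and 1 fall in TN mix, and the IL-2 receptor list 2 rises and 2 falls. Il12rb2 rose in both, by 0.72 in TN and 0.53 in TMem, where the call was lost in 4 of 12 fits without 1 array. Il2ra, the high-affinity IL-2 receptor chain, had effects of 0.07 ± 0.08 in TN and -0.03 ± 0.08 in TMem.

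Fewer genes were called between the cell types in the mix, though the median absolute gap over all genes was 0.137 in the mix and 0.14 alone. TN and TMem differed in 2055 genes (10.8%) in the mix and in 4262 (22.3%) when alone, and called gaps of at least 1 numbered 284 and 611. The gap is TN minus TMem, and the 2 gaps share no array. The Scd1 gap was -1.29 in the mix and -5.74 alone, that of Bnip3 -0.65 and -3.49, and that of Slc16a3 -0.24 and -2.51. It stayed wide for Prf1, at -3.8 and -4.09, and for Kcnma1, at 5.27 and 5.44. It was wider in the mix for Lgals3, at -2.87 against -0.78, and Cd80, at -1.93 against -0.29, and changed sign for Il7r, at -1.33 against 0.44, and Ifng, at -1.68 against 0.93. After subtraction the order turned, with 4707 genes called in the mix and 3848 alone, and called gaps of at least 1 numbered 661 and 611.

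**Figure D5:**
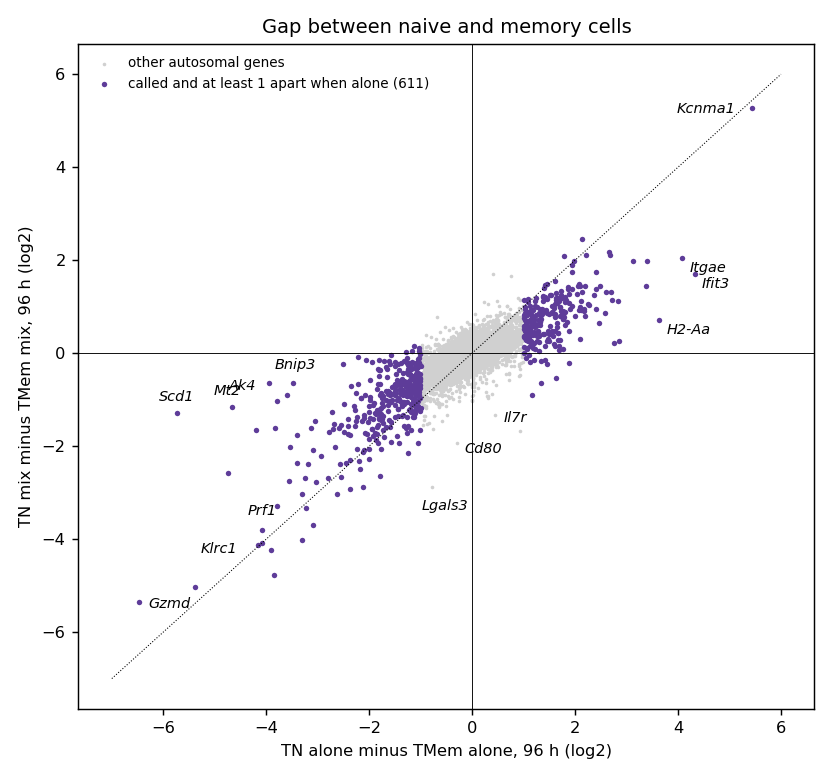
Gap between TN and TMem when cultured alone (horizontal) and in the mix (vertical), in log2, for each autosomal gene; purple marks the 611 genes called and at least 1 apart alone, and the dotted line marks equal gaps. Scd1, Mt2, Ak4 and Bnip3 lie far above the line at left, Prf1 and Kcnma1 near it, and Lgals3, Cd80 and Il7r below it.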

How the data were processed

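RNA was extracted with QIAGEN kits, labelled with biotin and hybridised to Affymetrix GeneChip arrays, per the labels' protocols, and RMA and Partek are named in the submitters' processing notes without versions. The deposited values are log2 intensities made by the authors. Of 35556 rows, 21789 carried 1 gene symbol and were used; 1621 had several and 12146 had none in the annotation table. The row with the highest mean stood for each of 999 genes with several rows.

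A limma 3.58.1 model (R 4.3.3) with 1 mean for each of the 10 groups was fitted over all 30 arrays, and p-values were adjusted by Benjamini-Hochberg over 19938 genes. Nothing beyond the repeat label says that repeats came from separate animals, so p-values measure the spread between arrays, and their number limits the precision. That spread was taken within groups and pooled over all 10 groups and 30 arrays, including arrays at times outside the comparison. The SE and p-value of a gene can therefore be wider or narrower than the listed repeats alone would give. Array medians were 6.76 to 6.94. A gene was near background where its group mean was under the 25th percentile of the arrays, averaged over the group (5.88 to 5.98), and folds against such a group are lower bounds against that quartile. Named genes were the largest differences, shared effects and opposite effects, up to 4 members a list chosen by their adjusted p, and a set of followed genes. The genes, lists and tests were chosen with earlier results of these data known. Alternatives were other samples in the fit, a replicate block, array weights, other scalings, a filter on low values, the mean of all rows of a gene, single arrays left out and subtraction of TMem signal. The labels give repeat numbers with no shared source. Deviations of same-numbered TN mix and TN alone arrays correlated at 0.492, 0.315 and 0.136. Arrays with unlike numbers were not compared, so these values do not show that the numbers pair the arrays. The main model used no pairing, and a fit with the number as a block is given below. The same correlations were -0.082, -0.197 and 0.011 for TMem mix and TMem alone. They were -0.342, 0.34 and -0.01 for TN mix and TMem mix, and 0.059, 0.201 and -0.042 for TN alone and TMem alone. Whether same-numbered TN mix and TMem mix arrays came from 1 culture was not tested. The code was tested on simulated data.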

Additional observations from a re-analysis of the deposited data

Results flagged for a closer look

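The effect of mixing differed between TN and TMem for 679 genes by a test of the difference itself in limma, and 22 genes were called in opposite directions. The largest positive differences (log2, TN effect minus TMem effect) were 4.44 for Scd1, 3.5 for Mt2, 3.31 for Ak4, 2.84 for Bnip3, 2.77 for Zdhhc2, 2.69 for Asns, 2.55 for Mt1, 2.27 for Slc16a3, 2.22 for Ccr2 and 2.16 for Ly6a2. The largest negative ones were -2.91 for H2-Aa, -2.62 for Ifit3, -2.61 for Ifng, -2.58 for Lyz2, -2.54 for Gpr83, -2.17 for H2-Ab1, -2.09 for Lgals3, -2.08 for Cpa3, -2.08 for Ccl3 and -2.03 for Itgae. These are differences of measured means. TN alone was near background for Scd1, TMem alone for H2-Aa and every group but TN alone for Lyz2, so the sizes of these 3 and their places in the order are not fixed.

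Among genes called in opposite directions the differences were 1.0 for Ppp2r2c, -1.79 for Ms4a4c, -1.39 for As3mt, -1.69 for S1pr1, -1.08 for Tcp11l2, -1.1 for Tspan32 and -1.19 for Cd79b, beside Ifit3 and H2-Ab1 above. TN alone was near background for Ppp2r2c.

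Y-linked genes, which are outside the autosomal comparison, had signal in TN mix above the level of TN alone. The TN mix means were 7.64 for Eif2s3y, 7.29 for Kdm5d and 6.95 for Uty (log2), against 4.17, 5.39 and 4.36 in TN alone, and the mean share of the step to TMem mix was 32.44%.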

How the results depend on the processing

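Array weights and the choice of samples in the fit moved the counts. With only the 96 h groups, 1146 genes were called for the difference, 354 in TMem, 151 in both with the same direction and 45 in opposite directions. Without the 0 h arrays the counts were 1380 for the difference, 3087 in TN, 490 in TMem, 215 shared and 68 opposite. With array weights they were 3082, 6101, 876, 408 and 118, with 4749 genes between TN and TMem in the mix and 7896 alone. The cause was not tested. After subtraction 4707 genes differed between TN and TMem in the mix, and 4660 at the Xist-based shares. Asking also for a size of at least 1 left 162 differences, 3 shared and 1 opposite gene. Leaving out 1 array at a time gave 513 to 723 differences, 1462 to 2024 TN calls, 102 to 229 TMem calls, 48 to 90 shared and 12 to 20 opposite genes, 1484 to 2207 genes between TN and TMem in the mix and 3487 to 4421 alone.

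The subtraction turned the difference to -0.98 for Mt1, -0.93 for Ccr2, -1.14 for Ly6a2, -3.03 for Gzma, -0.28 for Gzmk, -1.68 for Prf1, -1.80 for Cd44, -0.93 for Nfil3 and -1.33 for Entpd1, which follows from its construction for genes high in TMem. At the Xist-based shares, added after the data were seen, the reversed values were -1.14 for Ly6a2, -3.03 for Gzma, -0.28 for Gzmk, -1.68 for Prf1, -0.62 for Nfil3, -0.67 for Entpd1 and -0.37 for Bhlhe40 (difference) and -0.15 for Ccl5 (TN effect), with 678 differences called; the TMem calls of Ccl5, Dusp2, Cd79b, Tnfrsf4, Slc2a3 and Irf7, kept at the Y-linked shares, were lost there, though no TMem array was altered. Both assume that the sex-linked signal marks TMem RNA, which was not tested.

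With the replicate number as a block, 639 genes were called for the difference (340 positive, 299 negative), against 679 without it. The block changed no call named in TN. Not called under it were the differences of Fosb (adjusted p = 0.0633), Ccr7 (0.0547), Ikzf3 (0.0525) and Jund (0.0614) and the TMem effects of Pdcd1 (0.0617), As3mt (0.0507), Usp36 (0.0691) and B3galnt2 (0.069).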
